A study of Homo sapiens with 4 samples.

Results

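The comparison described here set A375 melanoma cells overexpressing MAGE-A1 against A375 cells with the empty vector, 1 library a side. Its members were all genes at 1 RPKM (reads per kilobase of transcript per 1e6 mapped reads) or more in either library: 13577 of 23284 gene symbols. Of these, 426 were small RNA genes, recognized by symbols starting with SNOR, SCARNA, RNU, or MIR and a digit, and were kept apart from the 13151 other genes. The value compared was the log2 ratio of (RPKM + 1) in the overexpression library to (RPKM + 1) in the vector library. Higher and lower mean a log2 ratio of at least 1 in size, which is 2-fold on this scale, and the pseudocount of 1 understates the ratio of low genes. With 1 library per group there is no test, no SD and no p-value, and each difference is one between libraries.

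A375 is an established human melanoma line with an activated BRAF kinase. The vector library came from cells stably carrying pcDNA3 without an insert, and the overexpression library from cells stably carrying pcDNA3 with MAGE-A1. The labels do not say whether either was a pool or 1 clone. A pair of further libraries served as reference points: scramble, from cells stably carrying pRNAT with a scrambled hairpin, and knockdown, from cells with pRNAT and a hairpin against MAGE-A1. All 4 were made from poly(A) RNA and sequenced on an Ion Torrent instrument. The scramble library was used as a second control, and every member's ratio was also taken against it. Below, 3 levels given for a gene without further words are those of the vector, overexpression and scramble libraries in that order, and 2 levels are those of the vector and overexpression libraries.

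MAGE-A1 is a cancer-testis antigen: germ cells make it, most other adult tissues do not, and many melanomas do. Several MAGE proteins bind RING-type ubiquitin ligases. The groups of genes described below belong mostly to a few well-known programs. In the integrated stress response, kinases phosphorylate eIF2, general translation slows, and the transcription factor ATF4 is made in larger amounts and switches on genes for amino acid supply. AP-1 factors such as JUN and FOSL1 carry signals of the MAP kinase cascade, which is constantly active in BRAF-mutant melanoma, to genes of cytokines, growth factors and proteases.

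Estimated depth was 24.53 M reads for the vector, 12.64 M for the overexpression and 16.34 M for the scramble library (M, 1e6). With a fitted 200 nt taken off its length, 1 RPKM in a transcript of 2000 nt thus stood for 44.2, 22.8 and 29.4 reads. The median log2 ratio over the 13151 other genes was 0.01, with quartiles of -0.45 and 0.46. The median size of the ratio was 0.45, against 0.19 between the scramble and vector libraries. Marker genes of other cell types stayed low: the summed level of 11 fibroblast markers was 50.2 RPKM with the vector and 28.9 with MAGE-A1, that of 11 leukocyte markers 33.9 and 25.8, of 10 endothelial markers 8.10 and 16.0, of 10 neuronal markers 31.2 and 28.4 and of 10 keratinocyte markers 19.7 and 37.1, while 13 melanocyte markers summed to 687 and 1130. Only 7 of the 13 melanocyte markers reached 1 RPKM in each library. The pigment genes TYR, TYRP1, PMEL, MLANA, GPR143 and SLC45A2 were under 1 RPKM in both, and DCT was at 3.61 and 2.15. The sums rested mainly on SOX10 at 281 and 288, MCAM at 176 and 491 and CSPG4 at 116 and 302. S100B went the other way, at 88.8 and 17.4.

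Of the 13151 other genes, 1112 were higher (8.46%) and 923 lower (7.02%) in the overexpression library. These shares are the background for the counts of gene families below, and a count near them is no result about a family. Scaling the libraries to equal upper quartiles shifted the median log2 ratio to -0.10 and the split to 887 higher and 1187 lower. Against the scramble library as well, 893 of the 1112 and 727 of the 923 passed 2-fold in the same direction. A 4-fold difference was passed by 218 genes upward and 91 downward, and an 8-fold difference by 68 and 11. Higher genes were more frequent among abundant ones, with 6% of genes below a mean of 2 RPKM and 17.1% of those above 100 RPKM. The estimated reads behind these levels differ accordingly, so ratios of genes near 1 RPKM are the least precise. The ratio also moved with base composition: transcripts of at most 38% GC had a median of 0.27 and those of 58 to 62% GC one of -0.21, and the part of this in the results was not tested beyond the values given with the trend removed. In a bulk library, fewer cells of a type and less RNA per cell cannot be told apart.

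**Figure D1:**
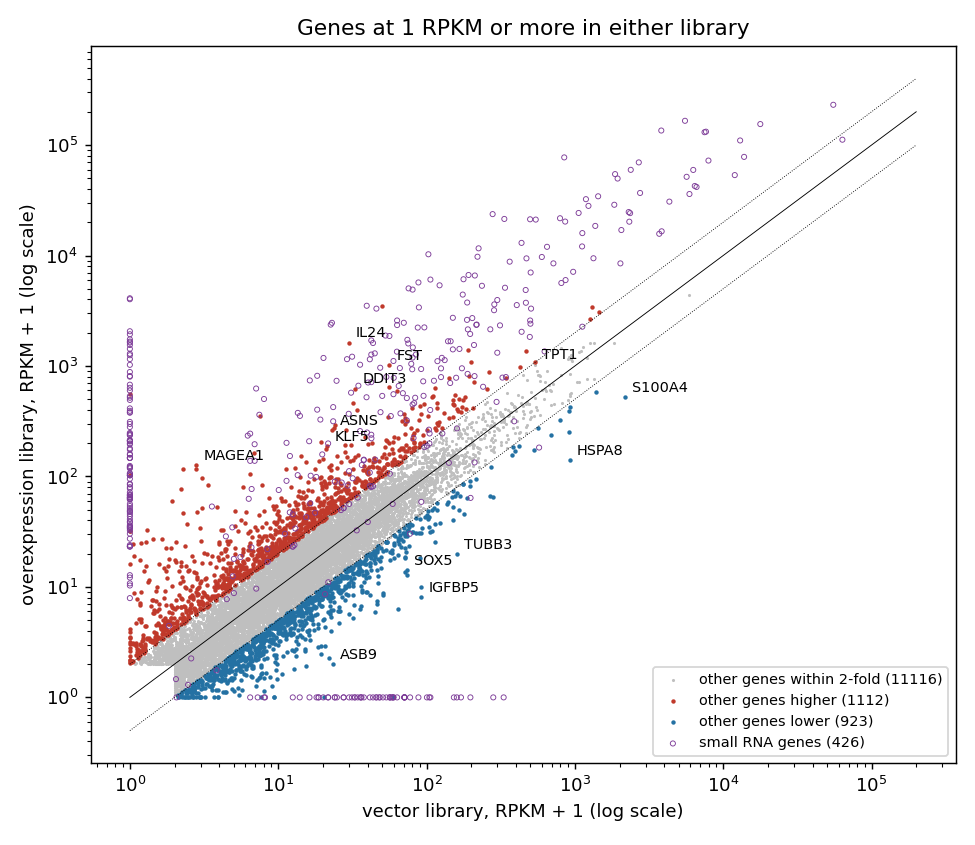
Level of each measured gene in the vector library (horizontal axis) and the overexpression library (vertical axis), both as RPKM + 1 on log scales. The solid line marks equal levels and the dotted lines 2-fold. Red points are the 1112 other genes higher, blue points the 923 lower and purple rings the 426 small RNA genes, most of which lie above the upper line.

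MAGEA1, the gene on the plasmid, was at 1.80 RPKM in the vector, 126 in the overexpression and 0.767 in the scramble library. The overexpression library was the only one of the 4 above 2 RPKM, with 0.473 in the knockdown library. The estimated reads were 67 with the vector and 2402 with overexpression, a ratio of 69.6 with an exact conditional 95% interval of 54.6 to 90.1 that covers counting error only. The log2 ratio of 5.5 placed MAGEA1 seventh among the 781 genes at 5 RPKM or more that were higher against both controls. Of 10 measured MAGE-A genes 2 were higher, MAGEA1 among them, and 0 lower against the vector library, and 1 was higher against the scramble library. Their near-identical sequences leave the split of reads among them uncertain. Of 8 measured MAGE genes outside the MAGE-A group, 0 were higher and 3 lower, with a median of -0.55. MAGED1, a widely expressed MAGE protein, was at 70.6 RPKM in the vector, 17.7 in the overexpression and 91.5 in the scramble library, and NDN (necdin) at 8.68, 2.47 and 10.3. Among 26 other cancer-testis antigens 0 were higher and 3 lower, including PRAME at 139, 57.98 and 132 RPKM. SSX2 was at 8.64 and 1.27 RPKM, but at 2.17 in the scramble library, so its ratio against that control was -0.48. TRIM genes, many of them RING ligases, numbered 46, of which 5 were higher and 5 lower. TRIM28, a corepressor bound by MAGE proteins, was at 377 RPKM in the vector, 154 in the overexpression and 436 in the scramble library, a log2 ratio of -1.28.

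The 250 bases before the transcription start of 7 genes that were higher at least 4-fold are shown because each carries, in capitals, a motif read by the factor families named above. The capitals mark TGANTCA (AP-1), TGACGTCA (the cyclic AMP response element, CRE) or TGATGNAA (the composite site of C/EBP and ATF proteins), on either strand. The sequences run 5′ to 3′ along the gene and come from RefSeq on GRCh38.p14, not from the reads.
IL11 (AP-1, chr19:55370464-55370713, minus strand): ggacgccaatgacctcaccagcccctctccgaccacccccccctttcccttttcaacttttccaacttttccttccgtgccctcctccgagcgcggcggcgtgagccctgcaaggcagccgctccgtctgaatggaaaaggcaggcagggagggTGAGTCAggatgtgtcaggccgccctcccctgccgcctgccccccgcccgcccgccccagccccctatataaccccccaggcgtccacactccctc
CHAC1 (C/EBP-ATF, chr15:40953221-40953470, plus strand): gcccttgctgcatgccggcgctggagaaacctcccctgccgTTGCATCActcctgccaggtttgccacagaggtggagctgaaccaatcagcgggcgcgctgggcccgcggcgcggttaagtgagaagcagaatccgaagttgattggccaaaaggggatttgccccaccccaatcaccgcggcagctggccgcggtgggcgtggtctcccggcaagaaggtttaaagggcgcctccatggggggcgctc
ATF3 (C/EBP-ATF, chr1:212565157-212565406, plus strand): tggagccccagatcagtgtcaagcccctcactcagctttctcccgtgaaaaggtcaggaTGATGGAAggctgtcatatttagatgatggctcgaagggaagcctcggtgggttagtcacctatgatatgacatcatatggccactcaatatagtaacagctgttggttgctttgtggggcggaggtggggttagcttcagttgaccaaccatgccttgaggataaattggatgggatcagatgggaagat
ASNS (C/EBP-ATF, chr7:97872409-97872658, minus strand): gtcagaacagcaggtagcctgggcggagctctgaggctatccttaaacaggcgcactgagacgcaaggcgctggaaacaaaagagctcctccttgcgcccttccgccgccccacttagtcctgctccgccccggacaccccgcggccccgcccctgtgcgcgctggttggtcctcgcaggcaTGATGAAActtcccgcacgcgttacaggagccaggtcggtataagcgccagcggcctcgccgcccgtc
PPP1R15A (CRE, chr19:48872171-48872420, plus strand): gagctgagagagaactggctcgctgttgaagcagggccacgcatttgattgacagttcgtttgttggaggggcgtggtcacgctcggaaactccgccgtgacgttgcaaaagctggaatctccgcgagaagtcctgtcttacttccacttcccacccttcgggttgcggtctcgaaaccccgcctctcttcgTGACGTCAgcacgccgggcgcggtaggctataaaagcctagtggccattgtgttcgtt
EPHA2 (CRE, chr1:16156070-16156319, minus strand): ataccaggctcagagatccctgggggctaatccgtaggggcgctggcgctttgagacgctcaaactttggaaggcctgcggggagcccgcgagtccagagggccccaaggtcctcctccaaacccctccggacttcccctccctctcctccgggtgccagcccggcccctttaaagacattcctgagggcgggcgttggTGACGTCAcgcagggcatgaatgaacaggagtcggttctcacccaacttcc
VGF (CRE, chr7:101165570-101165819, minus strand): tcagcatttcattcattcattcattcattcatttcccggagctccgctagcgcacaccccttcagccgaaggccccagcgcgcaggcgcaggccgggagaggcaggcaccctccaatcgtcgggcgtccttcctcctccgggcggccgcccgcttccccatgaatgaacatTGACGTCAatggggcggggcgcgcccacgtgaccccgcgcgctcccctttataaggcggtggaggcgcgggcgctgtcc

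IL11, a cytokine of the IL6 family, was at 6.5 RPKM in the vector, 352 in the overexpression and 14.3 in the scramble library, and its AP-1 motif begins 96 bases before the start. ASNS, which makes asparagine, was at 22.2, 259.8 and 23.1 RPKM, with a C/EBP-ATF motif 68 bases before the start. ATF3, a stress-induced factor of the ATF family, was at 5.41, 104 and 5.60 RPKM. VGF, a secreted neuropeptide precursor, was at 55.0, 644 and 83.9 RPKM, with a CRE 79 bases before the start. In each of these 4 genes both controls lay far under the overexpression library. All were taken from genes higher at least 4-fold against the vector library, so for that control this is no separate result. IL11, ATF3 and VGF were also among the genes ranked for being higher against both controls. Of 155 genes higher at least 4-fold with a promoter of 300 bases (250 before to 50 after the start) in the RefSeq table, 30 held at least 1 of the 3 motifs. The share of all promoters holding at least 1 of the 3 was not counted, so this count shows no excess. Shares of each motif over all promoters are given below. A match describes the letters of the window and shows neither binding nor a cause.

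Over all 10169 promoters of measured genes in the table, searched on both strands, the AP-1 motif was found in 4.53% of all, 8.43% of the 842 of higher genes, 9.68% of the 155 higher at least 4-fold and 4.68% of the 705 of lower genes. The C/EBP-ATF motif was found in 1.77% of all, 4.39% of higher genes, 4.52% of those higher at least 4-fold and 1.42% of lower genes. CRE was found in 3.39% of all, 4.04% of higher genes, 6.45% of those higher at least 4-fold and 1.42% of lower genes. TATAAA, the TATA box, was found in 5.71% of all promoters, 11.3% of higher genes, 18.7% of those higher at least 4-fold and 6.24% of lower genes. CCAAT was found in 37.3% of all, 35.4% of higher genes and 44.4% of lower genes, but also in 43.2% of those higher at least 4-fold. The E2F motifs TTTGGCGC and TTTCCCGC were found in 3.68% of all, 2.38% of higher genes, 1.94% of those higher at least 4-fold and 2.55% of lower genes, and TTTGAA, the cell cycle homology region, in 9.72%, 8.79%, 12.9% and 12.2%. The heat shock motif GAANNTTC was found in 4.7% of all, 4.16% of higher genes, 10.3% of those higher at least 4-fold and 6.67% of lower genes, and the antioxidant motif TGACNNNGC in 15%, 14%, 14.2% and 14.8%. Thus AP-1, C/EBP-ATF and TATA motifs, and by a smaller margin CRE, were more frequent before the higher genes than before all genes. Before the lower genes this held for CCAAT, the cell cycle homology region and the heat shock motif, and by smaller margins for AP-1 and TATAAA. Before the genes higher at least 4-fold, CRE, CCAAT, the cell cycle homology region and the heat shock motif were more frequent than before all genes as well. Of these 4, all but CRE were also more frequent before the 71 genes lower at least 4-fold, at 50.7%, 12.7% and 11.3%. In those 71, TATAAA was found in 11.3%, AP-1 in 5.63%, and CRE and C/EBP-ATF in 0%. The motifs can overlap one another, and the median GC content of the promoters was 65.3% for all and for higher genes, 64.3% for lower genes, 61.7% for genes higher at least 4-fold and 62% for those lower at least 4-fold.

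Most transcription factors of the ATF4 arm stood above their level in both controls. Of 9 measured, 7 were higher and 0 lower, with a median log2 ratio of 2.62 (2.73 against the scramble library). NUPR1, a stress-induced chromatin protein, was at 0.185 RPKM in the vector, 23.9 in the overexpression and 1.2 in the scramble library. DDIT3 (CHOP), which drives the late and death-prone phase of the response, was at 32.0, 622 and 34.2 RPKM. The pseudokinase TRIB3, which restrains ATF4, was at 23.2, 291 and 20.9. CEBPG, a partner of ATF4 on DNA, was at 9.49, 63.4 and 8.73, so that the log2 ratios of these 4 genes lay between 2.62 and 4.39. ATF4 itself, which is regulated mainly at translation, was at 184, 345 and 248.6 RPKM, within 2-fold, and ATF5 at 10.9, 11.9 and 9.88. The 4 kinases that phosphorylate eIF2 were all within 2-fold, with EIF2AK3 (PERK) at 4.13 and 6.90 RPKM and EIF2AK1 (HRI) at 38.3 and 22.998. Some of these factors were also higher in the knockdown than in the scramble library: 3 of the 7, among them DDIT3 at 169 RPKM and TRIB3 at 111 in the knockdown library. The median of the 9 in that comparison was 0.77, and the share of all genes higher there was not counted.

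Among effector genes of the same arm, 19 of 29 were higher and 2 lower, with a median of 1.71. CHAC1, which degrades glutathione, was at 2.06 RPKM in the vector, 95.1 in the overexpression and 3.24 in the scramble library, and from the estimated reads its ratio was 46.3 (95% interval 37.2 to 58.4, counting error only). ADM2, a peptide hormone, was at 0.423, 26.1 and 0.683 RPKM, and BEX2 at 0.908, 21.4 and 1.66. PPP1R15A (GADD34), the phosphatase subunit that ends eIF2 phosphorylation, was at 30.9, 465 and 38.2. All 4 belong to the genes ranked for being higher against both controls, so their lower level in both is no separate result. The abundant members EIF4EBP1, a brake on cap-dependent translation, and DDIT4, an mTORC1 inhibitor, stayed within 2-fold, at 135 and 223 and at 114 and 216 RPKM. The lower members were TRIB2, at 49.7, 7.54 and 40.8 RPKM, and SESN1, at 6.95, 2.55 and 6.10. TRIB2 and TRIB3 belong to the same pseudokinase family and differed in opposite directions, with log2 ratios of -2.57 and 3.59. Of the 19 higher effectors, 6 were also higher in the knockdown than in the scramble library, CHAC1 at 34.5 RPKM among them. The median of the 29 in that comparison was 0.44, again without a count over all genes.

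**Figure D2:**
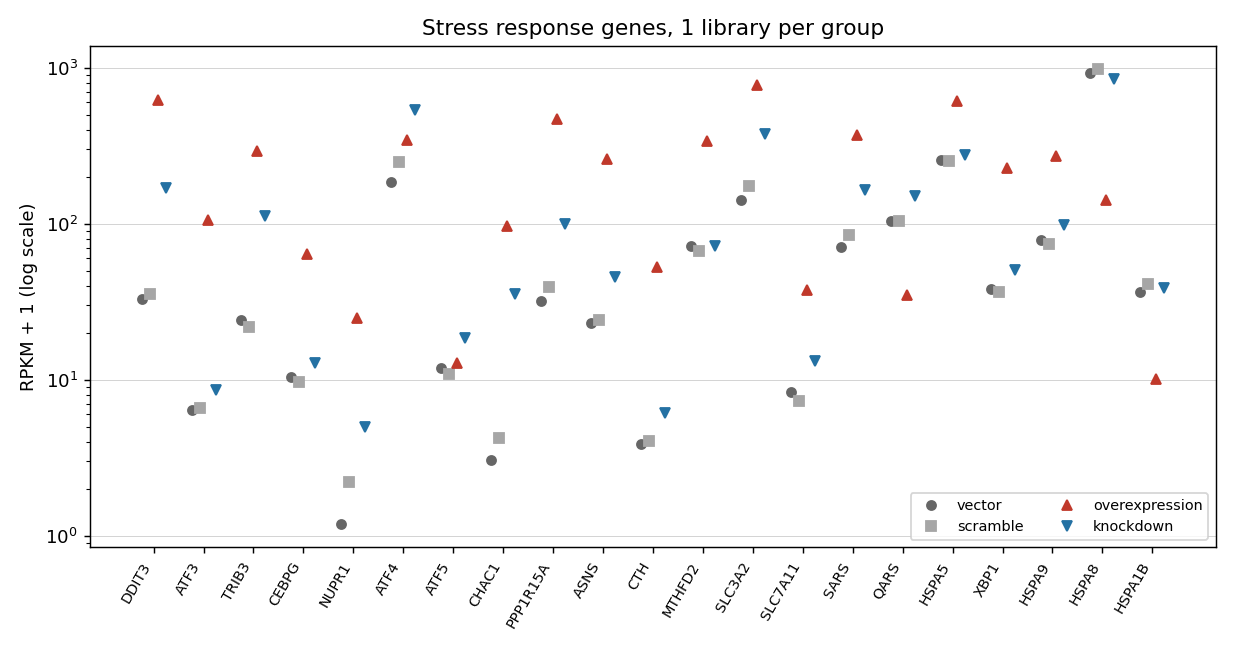
Level of 21 stress response genes in each of the 4 libraries, as RPKM + 1 on a log scale, 1 marker per library. Most red triangles (overexpression) lie above both controls, while those of QARS, HSPA8 and HSPA1B lie below.

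Enzymes that make amino acids and feed the folate cycle formed the next tier, with 14 of 27 higher and 2 lower (median 1.13). CTH, the last step of cysteine synthesis from methionine, was at 2.89 RPKM in the vector, 51.5 in the overexpression and 3.07 in the scramble library. CBS, the step before it, was at 16.7, 116 and 20.4. GOT1, the cytosolic aspartate aminotransferase, was at 21.8, 125 and 20.7. All 3 were above both controls by a log2 ratio of at least 2.45. The mitochondrial folate enzymes ALDH1L2 and MTHFD2 were at 4.36 and 31.1 and at 70.5 and 338 RPKM. SHMT2, the mitochondrial serine hydroxymethyltransferase, was at 85.5 and 168, just within 2-fold (0.96), while SHMT1, its cytosolic counterpart, was lower at 33.9 and 12.2 (-1.40). PHGDH, the entry to serine synthesis, was at 70.2 in the vector, 139 in the overexpression and 110.0 in the scramble library, so its ratio of 0.98 became 0.33 against the second control.

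Among amino acid transporters, 9 of 24 were higher and 3 lower, with a median of 0.58. SLC3A2, the heavy chain shared by several exchangers, was at 142 RPKM in the vector, 772 in the overexpression and 174 in the scramble library. Its light chains SLC7A11, which imports cystine, and SLC7A5, which imports leucine, were at 7.29, 36.8 and 6.36 and at 154, 543 and 233. The neutral amino acid carriers SLC38A1, SLC38A2 and SLC1A5 had log2 ratios of 2.36, 1.87 and 1.97. SLC7A1, the arginine carrier, was at 37.9, 110.1 and 50.1. Lower were the glutamate carriers SLC1A1, at 7.06, 1.65 and 6.99 RPKM, and SLC1A3, at 5.71, 2.01 and 2.97, whose ratio against the scramble library was -0.40. The taurine carrier SLC6A6 was lower at 41.9, 19.4 and 39.8. Of the 3, SLC1A1 alone was past 2-fold against the scramble library.

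The tRNA synthetases split by compartment. Of 21 cytosolic enzymes, which charge tRNAs for translation outside mitochondria, 12 were higher and 1 lower (median 1.18), while of 17 mitochondrial enzymes 1 was higher and 0 lower (median 0.00, of either sign under the alternatives). SARS (serine) was at 70.0 RPKM in the vector, 369 in the overexpression and 83.3 in the scramble library, YARS (tyrosine) at 70.8, 297 and 82.1, and AARS (alanine) at 90.8, 365 and 113. The exception was QARS (glutamine), at 103, 33.8 and 103, a log2 ratio of -1.57. RARS, KARS, FARSA and HARS were within 2-fold, so the cytosolic enzymes were not alike: the ratios ran from -1.57 to 2.38. FARSB, the other subunit of the phenylalanine enzyme, was higher at 21.1 and 50.5 RPKM while FARSA was at 119.9 and 125. The mitochondrial member above 2-fold was NARS2, at 6.95, 15.5 and 5.52, and IARS2 was at 71.6 and 71.7.

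**Figure D3:**
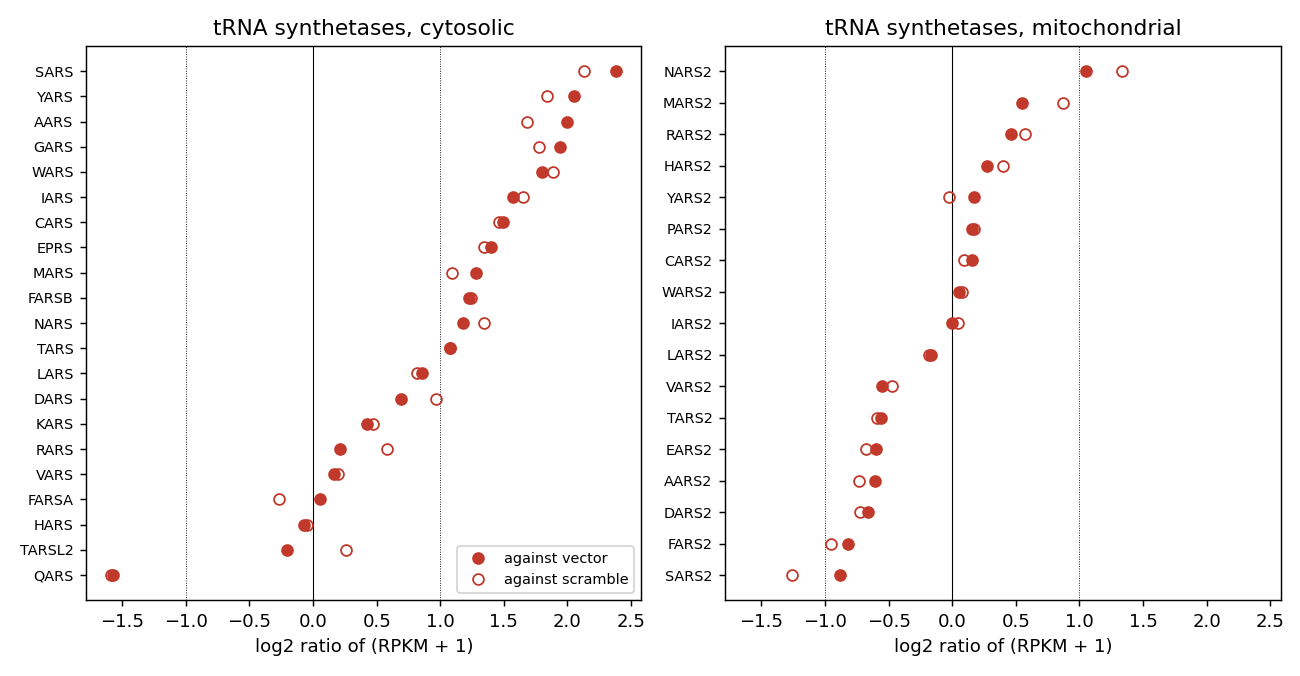
Log2 ratio of each measured tRNA synthetase in the overexpression library, against the vector library (filled) and the scramble library (open), cytosolic enzymes on the left and mitochondrial ones on the right. Dotted lines mark 2-fold: 12 cytosolic and 1 mitochondrial enzyme lie beyond the right one against the vector library.

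HSP70 chaperones differed by the compartment they serve. HSPA5 (BiP), the HSP70 of the endoplasmic reticulum, was at 253 RPKM in the vector, 612 in the overexpression and 249.3 in the scramble library, and HSPA9, the mitochondrial HSP70, at 77.1, 271 and 73.6. The cytosolic HSP70 HSPA8 was at 920.4, 139.8 and 981, and the heat-inducible copies HSPA1A and HSPA1B at 30.9, 9.14 and 41.5 and at 35.3, 9.19 and 40.02. The last pair are near-identical, so the split of reads between them is uncertain. HSPA8 had an estimated read ratio of 0.152 (95% interval 0.147 to 0.157). The partners of cytosolic HSP70 and HSP90 were mostly within 2-fold: DNAJA1 was lower, at 135, 54.9 and 137 RPKM, HSP90AA1 lower at 381, 183 and 403, and HSP90AB1 at 695 and 442. All 16 measured HSP90 co-chaperones and heat shock factors were within 2-fold. Of the HSP70, HSP110 and HSP90 list 2 of 15 were higher and 5 lower (median -0.65), and of 37 DNAJ genes 2 were higher and 2 lower.

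Sensors and degradation factors of the endoplasmic reticulum had 4 of 20 higher and 0 lower (median 0.48). ERN1 (IRE1), a sensor of unfolded protein, was at 1.71 RPKM in the vector, 16.1 in the overexpression and 1.26 in the scramble library, and XBP1, the factor whose RNA it splices, at 37.3, 226 and 35.6. HERPUD1, a scaffold of the degradation machinery, was at 21.1, 86.9 and 21.6. The folding enzymes of the same compartment did not share this difference as a group, with 4 of 24 higher, 2 lower and a median of 0.04 that changed sign with a common upper quartile. PPIB, P4HB and HSP90B1 were at 469 and 448, at 355 and 349 and at 285 and 287 RPKM, all within 2-fold, and CALR (calreticulin) was lower at 562, 275 and 837.

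Among autophagy genes 6 of 32 were higher and 0 lower (median 0.18). MAP1LC3B, which coats the autophagosome, was at 33.6 RPKM in the vector, 157 in the overexpression and 28.4 in the scramble library, the conjugation factor ATG12 at 8.42, 49.8 and 8.87, and the cargo receptor SQSTM1 (p62) at 164, 506 and 216. GABARAP, a relative of MAP1LC3B, was at 196 and 144. The NRF2 antioxidant targets had 4 of 29 higher and 3 lower (median -0.12), and SLC7A11 and SQSTM1, already described, were among the higher ones. Of NQO1, TKT and PRDX1, which answer to NRF2 in many cells, none was higher. NQO1 and TKT were within 2-fold at 160.2 and 100.3 and at 318 and 192 RPKM, and PRDX1 was lower at 269 and 121. TXNIP, which binds thioredoxin and limits glucose uptake, was at 27.2, 191 and 25.4. ODC1, the first enzyme of polyamine synthesis, was at 13.1, 97.7 and 19.3, and polyamine enzymes had 3 of 10 higher and 0 lower. Proteasome subunits had 3 of 46 higher and 2 lower, shares near or under the 8.46% and 7.02% of all genes.

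Transcription factors of the early response were higher in several families at once. Of 22 JUN, FOS, ATF, BATF and MAF factors 12 were higher and 1 lower, with a median of 1.23 (0.76 against the scramble library, where 8 were higher and 0 lower). MAFK and MAFF, small MAF proteins that pair with other factors, were at 8.67, 53.2 and 10.5 and at 6.44, 44.1 and 8.34 RPKM. CREB5 was at 0.728, 8.21 and 0.627. The FOS gene itself was within 2-fold, at 57.6 RPKM in the vector, 37.9 in the overexpression and 43.2 in the scramble library, as were FOSB at 30.3 and 36.8 and JUND at 43.3 and 55.2. MAF, the large MAF protein, was lower at 27.0 and 6.55, but at 12.3 in the scramble library.

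Of 23 early genes of the EGR, IER, NR4A and MYC group 12 were higher and 1 lower (median 1.14). EGR1, a zinc finger factor induced by ERK, was at 22.7 RPKM in the vector, 276 in the overexpression and 26.0 in the scramble library, and EGR2 at 0.125, 6.78 and 0.0235. MYC, the growth-promoting factor, was at 18.3, 87.1 and 15.4. IER3 was unlike them, at 153, 157 and 158. Among Kruppel-like factors 7 of 14 were higher and 0 lower (median 1.13). KLF5, which promotes epithelial growth, was at 20.4, 186 and 29.4 RPKM, an estimated read ratio of 9.15 (95% interval 8.68 to 9.65), KLF4 at 4.11, 34.8 and 4.10, and KLF10 at 16.5, 94.2 and 16.7. KLF9, the most abundant member of the family in the vector library among those within 2-fold, was at 83.4 and 91.1.

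The feedback genes of the ERK pathway were higher in part. Of 27 Sprouty, SPRED, ETS and related ERK output genes 11 were higher and 0 lower (median 0.71), and of 18 dual specificity phosphatases 5 were higher and 0 lower (median 0.57). ETS1, a transcription factor phosphorylated by ERK, was at 19.003 RPKM in the vector, 144 in the overexpression and 22.4 in the scramble library. SPRY2, an inhibitor of receptor kinase signalling, was at 102, 349.7 and 102, and DUSP10, which acts on JNK and p38, at 8.97, 47.9 and 8.50. DUSP6 and DUSP4, both phosphatases of ERK, were within 2-fold with opposite signs, at 156 and 277 and at 103 and 52.8 RPKM. The kinases of the cascade had 2 of 31 higher and 3 lower, with a median of 0.00. MAP2K6, an activator of p38, was at 7.08, 0.142 and 7.67, whereas MAP2K3, the other activator of p38, was at 40.4, 94.1 and 45.1, so the pair differed in opposite directions. BRAF, the kinase mutated in these cells, was higher at 5.25, 12.9 and 4.72.

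**Figure D4:**
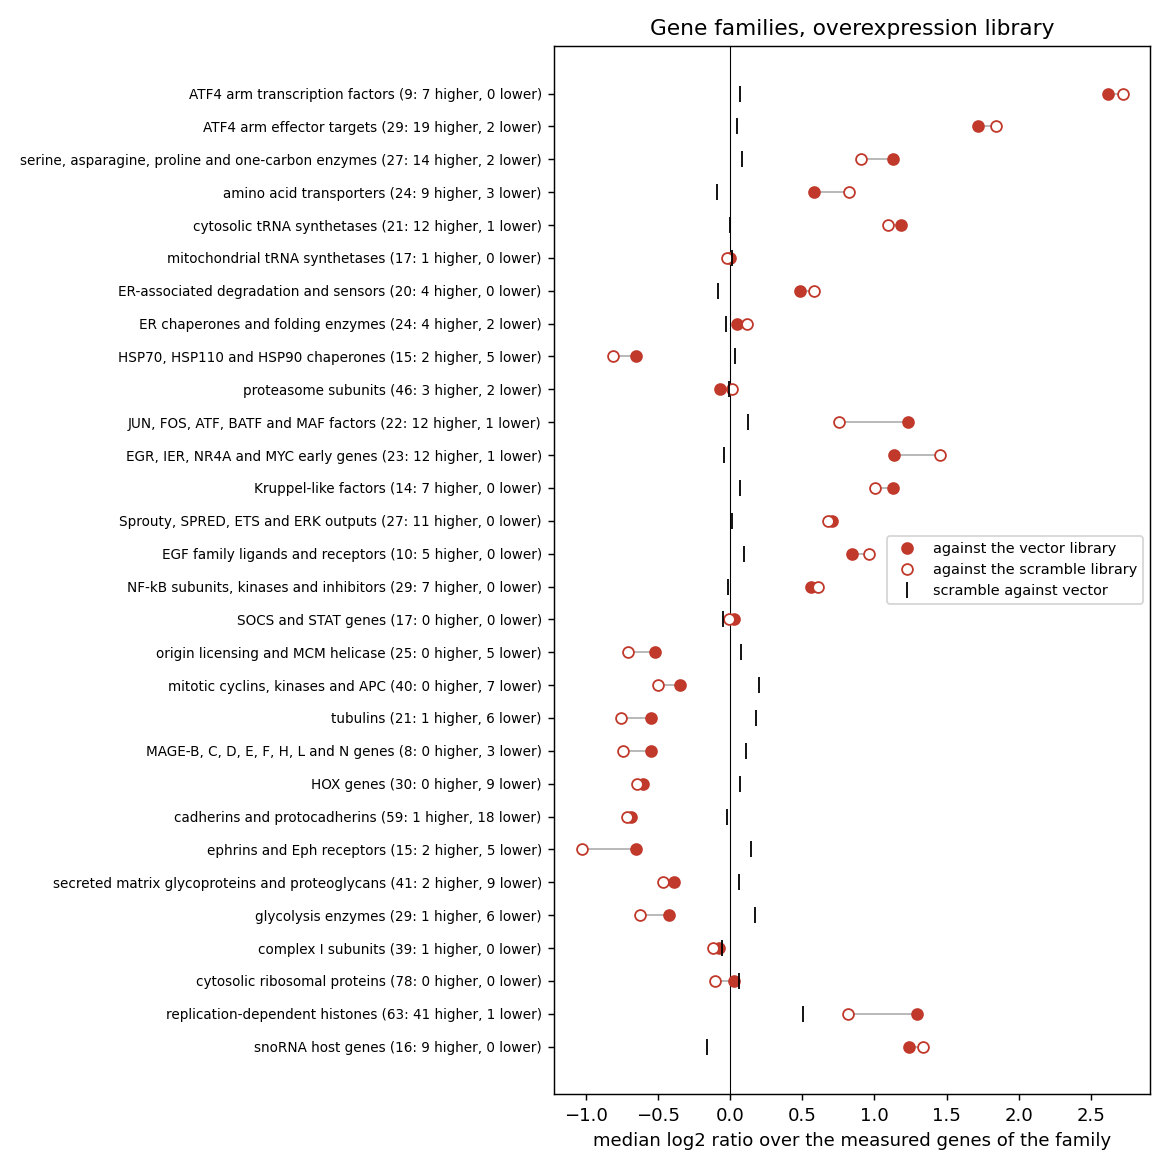
Median log2 ratio of 30 gene families in the overexpression library against the vector library (filled) and against the scramble library (open), with the scramble library against the vector library as a black tick. Labels give the measured genes and the counts higher and lower against the vector library. The ATF4 arm lies farthest to the right, and the joint list of cadherins and protocadherins, HOX genes and Eph receptors lie to the left.

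Secreted signals differed within their families. Among cytokines and receptors of the IL6 family, 5 of 14 were higher and 0 lower: after IL11 came IL6 at 0.165 RPKM in the vector, 16.6 in the overexpression and 0.372 in the scramble library, LIF at 20.2, 175 and 24.5, CLCF1 at 8.998, 30.3 and 10.2, and their shared receptor chain IL6ST at 22.1, 58.1 and 18.0. The kinases, STATs and SOCS inhibitors that act behind these receptors had 0 of 17 higher and 0 lower (median 0.02, of either sign under the alternatives), with STAT3 at 39.8, 40.4 and 44.1. The neutrophil-attracting chemokine CXCL2 was at 0.527, 8.99 and 1.64, while CXCL1 of the same cluster was at 47.6, 37.3 and 63.9 and the monocyte chemokine CCL2 was lower at 18.4, 7.67 and 21.0. In all 5 of 10 chemokines were higher and 1 lower. IL1A was at 1.34, 22.3 and 3.04 RPKM, whereas IL1B, its neighbour in function, was at 4.35, 4.63 and 13.9. IL32 was at 0.239, 12.8 and 0.269, and IL12A at 0.784, 10.9 and 1.77.

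Of 29 NF-kB subunits, kinases and inhibitors 7 were higher and 0 lower (median 0.56). The subunits of the alternative arm, NFKB2 and RELB, were at 18.1 and 9.17 RPKM with the vector, 95.9 and 43.1 with overexpression and 20.5 and 8.60 with the scrambled hairpin. RELA and NFKB1, of the classical arm, were within 2-fold, at 52.2 and 77.4 and at 26.1 and 52.6. BIRC3, an inhibitor of cell death, was at 0.810, 14.3 and 0.581. In the TNF receptor family 4 of 15 were higher and 2 lower. TNFRSF12A (the TWEAK receptor) was at 67.0, 319 and 90.6, and the TRAIL receptors TNFRSF10A and TNFRSF10B at 9.59 and 38.2 and at 36.8 and 123.1. TNFRSF21 (death receptor 6) was lower at 70.4, 12.6 and 84.0, and TNFRSF19 at 24.7, 5.52 and 22.6. NGFR, a neural crest receptor of this family, was higher at 27.1, 106 and 27.9.

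Several families of growth factors and their receptors had more higher than lower members. FGF ligands and receptors had 0 of 11 higher and 1 lower, where 8.46% and 7.02% of all genes were. Their median of -0.19 became 0.32 with a filter of 5 RPKM, and against the scramble library 1 was higher and 1 lower. Of 10 EGF family genes 5 were higher and 0 lower (median 0.85): HBEGF, a ligand, was at 3.70 RPKM in the vector, 24.96 in the overexpression and 4.12 in the scramble library, NRG1 at 1.99, 9.79 and 2.11, the receptor EGFR at 4.74, 14.4 and 5.45, and ERRFI1, an inhibitor of that receptor, at 108, 526 and 114. ERBB3 and ERBB2 were within 2-fold and below the vector library, at 139 and 83.0 and at 23.7 and 12.3. Of 15 receptor kinases tied to the invasive state 6 were higher and 1 lower. EPHA2 was at 78.6, 417 and 136, MET at 15.5, 51.2 and 20.1, and GAS6, the ligand of AXL, at 3.60, 15.4 and 4.52. IGF1R was lower at 32.1, 14.7 and 34.8. Of the YAP and TEAD genes 8 of 22 were higher and 1 lower, with CYR61 at 52.6, 146 and 84.9 and AMOTL2 at 31.0, 68.9 and 50.9, but 4 were higher against the scramble library.

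The TGF-beta superfamily was divided, with 6 of 35 genes higher and 6 lower. Activin subunits INHBA and INHBE were at 32.8 and 0.0544 RPKM with the vector, 399.98 and 23.6 with overexpression and 60.9 and 0.136 with the scrambled hairpin, and FST (follistatin), which binds and blocks activin, at 55.0, 1011 and 72.8. On the BMP side, BMP2 was higher at 1.35, 9.02 and 2.09, but BMP4 was lower at 5.59, 0.567 and 9.19. The BMP targets ID1, ID3 and SMAD6 were at 30.2 and 10.5, at 40.7 and 15.4 and at 4.45 and 0.0590. TGFBI, an abundant matrix protein named for its induction by TGF-beta, was lower at 278, 64.0 and 156. Wnt genes had 3 of 27 higher and 3 lower (median -0.43, with 17 below 0), and 2 higher and 7 lower against the scramble library, with FZD1 at 13.5, 2.53 and 16.8 and WNT5A at 21.3, 6.52 and 15.3. In the IGF axis, STC2, a stress-induced glycoprotein, was at 1.96, 33.4 and 2.49, and IGFBP5 at 91.2, 7.07 and 109.6, the ends of the range of that list.

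Genes of growth arrest and death went both ways. GADD45A and GADD45B were at 18.4 and 3.25 RPKM with the vector, 203 and 31.6 with overexpression and 18.2 and 3.27 with the scrambled hairpin, both stress-induced genes of growth arrest. BAX, a death promoter, was lower at 197, 90.4 and 221, and CDKN1A (p21), a CDK inhibitor, was at 145, 148 and 145. In the BCL2 family, PMAIP1 (NOXA), a death promoter, and MCL1, the survival protein it binds, were both higher, at 11.3, 78.8 and 8.88 and at 153, 441 and 148 RPKM. Of 20 members 6 were higher and 2 lower.

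Cell cycle genes lay mostly below 0 with few past 2-fold. Of 25 origin licensing and helicase genes 0 were higher and 5 lower (median -0.52, -0.71 against the scramble library). All 6 subunits MCM2 to MCM7 of the replicative helicase were below the vector library, with ratios from -1.35 to -0.52, and of the 4 GINS subunits 3 were lower, with GINS4 at 10.7, 3.90 and 11.9 RPKM. LIG1, which joins Okazaki fragments, was at 13.3, 3.89 and 17.9. Of 40 mitotic cyclins, kinases and anaphase-promoting genes 0 were higher and 7 lower, and 30 were below 0. PLK1, the mitotic kinase, was at 72.0, 28.2 and 105, CCNB1 (cyclin B1) at 71.3, 29.1 and 82.1, and TOP2A at 74.7, 34.1 and 85.8. Centromere proteins had 0 of 19 higher and 0 lower, with CENPF at 69.0 and 34.2. G1 regulators went both ways: CCND1 (cyclin D1), CDK6 and CDC25A were higher at 126 and 275, at 49.4 and 114 and at 18.1 and 38.4 RPKM, and SKP2 and the inhibitor CDKN2C lower at 36.3 and 11.95 and at 38.4 and 8.03.

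Tubulins lay mostly below the vector library, with 6 of 21 lower and 1 higher (median -0.55). All 8 measured beta tubulins were below the vector library, TUBB4B at 421 RPKM in the vector, 219.8 in the overexpression and 498 in the scramble library, and the summed level of the 8 was 1369 RPKM in the vector, 543 in the overexpression and 1638 in the scramble library. TUBA1A and TUBA1B were at 164, 48.3 and 157 and at 795, 323 and 933. The higher member was TUBE1, epsilon tubulin of the centriole, at 5.67, 27.0 and 4.33. Kinesins had 4 of 35 lower and 1 higher.

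Genes of cell surface identity were lower in several families. Of 59 cadherins and protocadherins 1 was higher and 18 lower, with a median of -0.68, and 50 lay below 0. The 6 measured genes with CDH symbols did not share this, with 1 higher, 1 lower and a median of 0.01. The 6 measured protocadherins outside the beta and gamma clusters had 4 lower and a median of -1.65. In the protocadherin beta cluster on chromosome 5, 7 of 15 genes were lower and all 15 below 0, with summed levels of 78.1 RPKM in the vector, 23.5 in the overexpression and 73.4 in the scramble library. In the gamma cluster 2 of 9 were lower and all 9 below 0. PCDHB5 was at 17.5, 1.84 and 18.3 RPKM, and PCDH10, outside the clusters, at 8.19, 1.77 and 8.99. Genes of a cluster share sequence, so reads may be split among them. Classical and related cadherins within 2-fold included CDH2 (N-cadherin) at 47.9, 30.2 and 44.1, and CDH13, an anchored cadherin, at 43.3, 69.7 and 43.6.

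HOX genes, which fix position along the body axis, had 0 of 30 higher and 9 lower (median -0.61). The HOXB cluster held 5 of the 9, among 9 measured, and its median was -1.18 (-1.38 against the scramble library). HOXB8 was at 34.8 RPKM in the vector, 5.35 in the overexpression and 40.7 in the scramble library, HOXB5 at 19.7, 3.31 and 17.5, and HOXB6 at 22.6, 5.14 and 23.1, while HOXB9 of the same cluster was at 16.2, 30.9 and 17.9. The antisense gene HOXB-AS3 in the same cluster was at 12.6, 3.10 and 11.3, and without a stated strand setting its reads cannot be told apart from those of the genes it overlaps. The medians of the HOXA, HOXC and HOXD clusters were -0.68, -0.60 and -0.15.

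Eph receptors and ephrins had 5 of 15 lower and 2 higher, with a median of -0.65 (-1.03 against the scramble library). EPHA7 was at 4.03 RPKM in the vector, 0.147 in the overexpression and 2.04 in the scramble library, and EFNB2 at 19.4, 7.60 and 21.6, against the higher EPHA2 given above. Genes known from neural crest and neural cells differed in both directions. Lower were SOX5 at 72.8, 13.1 and 55.2, SOX2 at 11.8, 1.61 and 7.98, and NEFL, a neurofilament, at 24.8, 3.68 and 15.0. SYT1, a calcium sensor of synaptic vesicles, was higher at 3.62, 23.4 and 2.85, as was NGFR above, and the neural crest factor PAX3 was within 2-fold at 8.30, 17.3 and 8.69. SOX10, the neural crest factor that maintains the melanocyte lineage, was at 281, 288 and 288. In the pigment and lineage list 2 of 16 were higher and 2 lower, with MCAM, a melanoma adhesion molecule, at 176, 491 and 229.9 and S100B at 88.8, 17.4 and 49.5.

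The S100 calcium-binding proteins had 3 of 13 higher and 3 lower. S100P was at 2.37 RPKM in the vector, 83.0 in the overexpression and 3.16 in the scramble library, S100A2 at 30.1, 192 and 33.2, and S100A16 at 471, 1370.2 and 585. S100A4, linked to motility, was lower at 2171, 520.0 and 1373. Keratins had 6 of 10 higher and 2 lower against the vector library (median 1.11), but 3 higher and 3 lower against the scramble library (median 0.10). KRT80 was above both, at 32.0, 150.2 and 61.6, whereas KRT81 was at 21.3, 53.9 and 60.6, so its direction changed with the control. Integrins ITGA3 and ITGA5 were higher, at 84.8, 260.4 and 122 and at 57.3, 175 and 85.8, and ITGB4 lower at 24.5, 7.93 and 62.9.

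Secreted matrix glycoproteins and proteoglycans had 2 of 41 higher and 9 lower (median -0.39). VCAN (versican) was at 5.64 RPKM in the vector, 0.537 in the overexpression and 3.01 in the scramble library, and SDC2 and SDC4, both syndecans, differed in opposite directions, at 25.02, 7.79 and 15.3 and at 39.2, 194 and 52.8. The abundant TNC and THBS1 were within 2-fold, at 334 and 321 and at 269 and 281. Collagen chains had 2 of 20 higher and 1 lower, and laminin chains 0 of 9 in either direction. Of the metalloproteases and their inhibitors, 3 of 15 were higher and 3 lower: the collagenase MMP1 was at 0.569, 5.95 and 0.358, and the gelatinase MMP2 and the membrane-bound MMP14 at 174, 83.8 and 218 and at 43.8, 19.6 and 65.7. SERPINE2, a secreted protease inhibitor, reached 3104 RPKM from 1452 in the vector and 1533 in the scramble library, and SERPINA3 was lower at 533, 174 and 560.2. PTRF (cavin-1), the coat of caveolae, was lower at 151, 51.6 and 201, while CAV1 was at 74.2, 75.7 and 97.1.

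Interferon-induced genes had 2 of 38 higher and 9 lower. GBP2, a guanylate-binding protein, was at 8.51 RPKM in the vector, 1.09 in the overexpression and 6.18 in the scramble library, and OAS1, a sensor of double-stranded RNA, at 6.45, 1.64 and 7.25, while IRF1 was higher at 6.25, 20.8 and 5.99. Class I antigen presentation genes had 2 of 25 higher and 1 lower. CD274 (PD-L1), the inhibitory ligand for T cells counted with them, was at 0.710, 13.9 and 0.594, and B2M, the light chain of class I molecules, was at 451 and 367.

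Glycolysis genes had 1 of 29 higher and 6 lower (median -0.42), and 8 lower against the scramble library. GAPDH was at 5880.4 RPKM in the vector, 4392 in the overexpression and 5667 in the scramble library, LDHA lower at 391.6, 169.9 and 339, and PDK4 and PDK2, which restrain pyruvate entry into mitochondria, lower at 9.60, 0.631 and 3.55 and at 20.8, 4.87 and 23.2. The glucose carrier SLC2A3 was higher at 17.0, 47.0 and 17.7. HIF1A, the hypoxia factor, was higher at 63.3, 221 and 52.2, with 4 of 21 hypoxia genes higher and 1 lower. Of 39 complex I subunits 1 was higher and 0 lower, of 15 of complexes II and III 0 in either direction, of 14 of complex IV 0 higher and 1 lower, and of 19 of complex V 0 in either direction. Cholesterol genes had 1 of 27 higher and 3 lower. FADS3 was at 14.8, 88.0 and 23.7. Aldehyde dehydrogenases had 2 of 12 higher and 4 lower (median -0.49): ALDH1A3 was higher at 149.6, 447 and 142, and ALDH3B1 lower at 9.99, 3.21 and 11.9.

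Ribosomal proteins were within 2-fold almost throughout. All 78 measured cytosolic ribosomal proteins were within 2-fold, with a median of 0.03 that was -0.10 against the scramble library, and of 76 mitochondrial ribosomal proteins 1 was higher and 0 lower. Initiation factors had 4 of 56 higher and 1 lower, shares under the 8.46% and 7.02% of all genes. EIF1, which guards start codon choice, was at 207 RPKM in the vector, 719 in the overexpression and 204 in the scramble library. EIF4B was lower at 147, 64.2 and 136. Ribosome biogenesis genes had 6 of 38 higher and 0 lower, with NOP58 and DKC1, proteins of the C/D and H/ACA snoRNA particles, at 54.6, 160.0 and 46.02 and at 70.2, 171 and 65.5. SR splicing factors had 0 of 14 in either direction and 12 below 0. Zinc finger genes named ZNF had 20 of 442 higher and 7 lower (median 0.16), both smaller shares than the 8.46% and 7.02% of all genes. Against the scramble library 59 were higher and 7 lower (median 0.37), where 1330 and 1204 of 13128 other genes were, so the share of higher genes was then the larger.

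Host genes of snoRNAs, spliced noncoding RNAs whose introns hold snoRNAs, had 9 of 16 higher and 0 lower (median 1.24). GAS5 was at 199 RPKM in the vector, 1087 in the overexpression and 169 in the scramble library, SNHG1 at 54.6, 199 and 54.5, and SNHG15 at 21.6, 114 and 22.9. ZNFX1-AS1, another RNA with intronic snoRNAs, was at 190.5, 1388 and 118. SNHG3 was at 33.7 and 32.5 and DANCR at 146 and 82.8, both within 2-fold. Replication-dependent histones, whose RNA ends in a stem-loop without poly(A), had 41 of 63 higher and 1 lower (median 1.29, 0.82 against the scramble library, which itself was 0.50 above the vector library). By type, 11 of 13 H4 genes, 9 of 11 H3, 12 of 16 H2A and 7 of 19 H2B were higher, and medians were 2.07, 2.21, 1.35 and 0.61. HIST1H4E was at 14.4, 136 and 39.3 RPKM, and HIST1H2BK at 20.2, 22.3 and 25.9. Histone genes are near-identical within a type, so single values are uncertain. Of the 41 higher histones, 38 were also higher in the knockdown than in the scramble library. In that comparison the median of the 63 histones was 1.76 and that of the 78 cytosolic ribosomal proteins 1.02. The share of all genes higher there was not counted, so the 38 cannot be set against it. Polyadenylated variant histones such as H2AFZ, at 222 and 241, had 0 of 11 higher and 1 lower.

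Small RNA genes stood apart from all other classes: 327 of 426 were higher (76.8%) and 65 lower (15.3%), with a median of 3.44. The 426 include 9 microRNA host genes with symbols ending in HG, which are left out of the classes below. Transcripts of the others are short and mostly carry no poly(A) tail, and in such short genes a handful of reads gives a large RPKM. Of the RPKM summed over all symbols they held 45.9% in the empty-vector cells, 86.9% with MAGE-A1, 29% with the scrambled hairpin and 77.5% with the knockdown hairpin, which are not shares of reads. Of the 327 higher, 98 were listed at 0 in the vector library, and of the 65 lower, 60 were listed at 0 in the overexpression library. The controls also differed here: of the 65 lower genes 16 were lower against the scramble library too, against 320 of the 327 higher. Of 165 C/D box snoRNA genes 157 were higher and 4 lower, and of 94 H/ACA box genes 90 were higher and 2 lower. Cajal body RNAs had 19 of 23 higher and 2 lower, and U RNAs 4 of 5 higher and 1 lower. MicroRNA genes had 55 of 130 higher and 54 lower against the vector library, but 62 higher and 14 lower against the scramble library.

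Among C/D box genes, SNORD18B was listed at 0 in the vector library and at 4101 RPKM in the overexpression library, SNORD117 at 0 and 4020.3, and SNORD37 at 0 and 2062, all 3 at 0 in the scramble library and at 1706, 2299 and 1279.9 in the knockdown library. No fold is given against a library at 0. Of the lowest, SNORD114-23 was at 62.3 in the vector library and 0 in the other 3. SNORD94 was within 2-fold of the vector library at 20.8 and 10.03, but at 0 in the scramble library. Among H/ACA genes, SNORA19 was at 0 and 799 and SNORA71C at 40.4 and 107. Of the Cajal body RNAs, SCARNA1 was at 5.23 and 233 and SCARNA17 at 6.11 and 8.65. RNU11 and RNU6ATAC, RNAs of the minor spliceosome, were at 5.47, 243 and 41.1 and at 94.0, 725 and 10.9. Of the microRNA genes, MIR3661 was at 0, 279 and 108, MIR103A2 at 0, 242 and 0, and MIR4310 at 330.0, 0 and 0, so MIR4310 did not differ from the second control. Such values may rest on a few reads or on reads of the host transcript, since these precursors lie inside longer genes.

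Further noncoding RNAs fell outside the small RNA symbols and count with the other genes. All 4 genes with symbols starting with VTRNA were higher. VTRNA2-1 was at 49.3 RPKM with the vector and 73.9 with the scrambled hairpin, against 3463 with overexpression and 2602 with knockdown. VTRNA1-3 was listed at 0 in both controls, at 558 with overexpression and at 449 with knockdown. SNAR RNAs, a multicopy family, had 9 of 18 higher and 3 lower (median 0.99) against the vector library and 15 higher and 1 lower (median 4.04) against the scramble library, with SNAR-A6 at 24.4, 94.1 and 24.4 and SNAR-B2 at 403, 388 and 63.0. TERC, the RNA of telomerase, was at 1.47, 12.99 and 0.734, and the processing RNAs RPPH1 and RMRP at 58.8, 206 and 99.6 and at 1313, 3449 and 1669. The long intergenic genes named LINC had 4 of 35 higher and 4 lower, with LINC00460 at 8.69, 31.2 and 8.53. The 12 symbols starting with MIRLET (let-7 precursors and a host gene) were also outside the small RNA symbols, with 1 of 9 measured higher and 2 lower.

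By position, chromosome 13 stood apart. Its 222 measured genes had a median log2 ratio of 0.52, a fold of 1.44, with 52 higher (23.4% against 8.46% of all) and 6 lower (2.7% against 7.02%), and 75.7% lay above 0. The medians of the other chromosomes ran from -0.10 to 0.13, and their shares of higher genes from 4.25% to 13%. Against the scramble library the chromosome 13 median was again 0.52, and between the scramble and vector libraries it was 0.02. With the fitted length and GC trend removed it was 0.43, against -0.12 to 0.07 for the others. In the knockdown library against the scramble library it was -0.15. Since 1 library was made per group, a difference of the cells cannot be told apart from one of the library.

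The difference ran along the whole chromosome. In 6 successive stretches of 36 or 37 genes the medians were 0.29, 0.53, 0.64, 0.35, 0.55 and 0.62, and between 25 and 32 genes of each lay above 0. KLF5, described above, had the largest ratio of these genes. EXOSC8, a subunit of the RNA exosome, was at 14.9 RPKM in the vector, 55.4 in the overexpression and 16.6 in the scramble library, UFM1, a ubiquitin-like modifier, at 14.03, 52.6 and 10.8, and UCHL3, a deubiquitinase, at 13.3, 44.4 and 13.3. IRS2, an insulin receptor substrate, was at 29.4, 68.3 and 31.0, RASA3, a Ras inhibitor, at 28.7, 74.8 and 30.5, and DIS3, the exosome nuclease, at 15.1, 37.2 and 12.6. TPT1, an abundant growth-related protein, was at 537, 1024 and 556, just within 2-fold. Among the 6 lower genes, SHISA2 was at 49.5, 7.87 and 36.7 and SLITRK5 at 6.53, 1.45 and 7.60, while its relative SLITRK6 was higher at 15.3, 57.9 and 16.5.

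**Figure D5:**
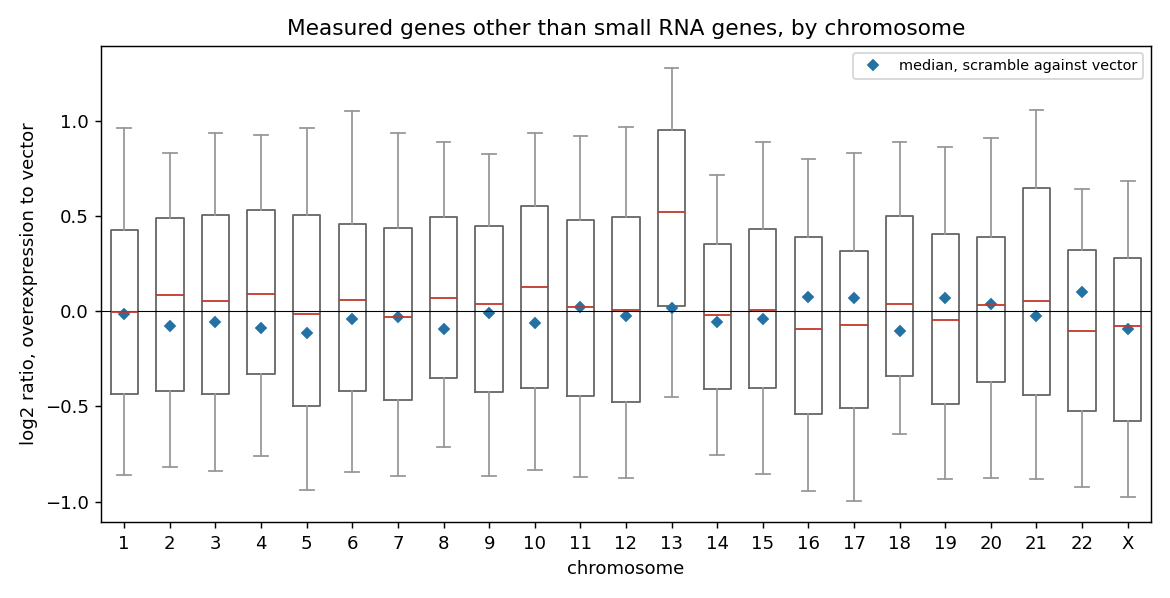
Log2 ratio of overexpression to vector for measured genes other than small RNA genes, by chromosome. Boxes give quartiles, red lines medians and whiskers the 10th and 90th percentiles. Blue diamonds are medians of the scramble against the vector library. The chromosome 13 box lies above 0, with its median at 0.52.

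Windows of 40 neighbouring genes gave the same picture on a finer scale. Of 600 overlapping windows 9 had a median of 0.5 or more, 4 of them on chromosome 13, and all 10 windows of that chromosome lay between 0.27 and 0.76. The highest of all, 0.96, covered the histone cluster on chromosome 6, and its median against the scramble library was 0.52. Outside chromosome 13 and the histone region, a window on chromosome 3 from 154121003 to 170870195 (GRCh38) had a median of 0.72 and one on chromosome 1 from 205789095 to 212699840 had 0.55. A window on chromosome 12 from 74537835 to 94460454 had 0.54. The lowest, -0.74, lay on chromosome 5 from 140645285 to 141320784 and held protocadherin clusters. Elsewhere on chromosome 12 the windows from 4487735 to 7109214 and from 6747996 to 9658415 had medians of -0.56 and -0.52.

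Below the leaders, the ranked genes included several with very low levels in both controls. HDAC9, a class IIa histone deacetylase, was at 2.06 RPKM in the vector, 51.1 in the overexpression and 2.65 in the scramble library. OSCAR, an immunoglobulin-like receptor of osteoclasts, was at 0.276, 24.5 and 0.362, and the chloride channel BEST1 at 1.06, 24.6 and 0.870. S1PR1, a receptor for sphingosine 1-phosphate, was at 0.755, 21.6 and 2.07, and ARC, an activity-induced gene of neurons, at 0.651, 26.0 and 0.999. All 5 were under 3 RPKM in both controls and above 20 in the overexpression library. The ranking kept only genes at least 2-fold above both controls, so the shared direction is no separate result. In the knockdown library they were at 1.81, 0.346, 2.28, 0.125 and 1.28 RPKM.

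Among lower genes of ranks 9 to 40, OLFML2A, a secreted olfactomedin protein, was at 18.4 RPKM in the vector, 1.49 in the overexpression and 12.8 in the scramble library. The intermediate filament gene SYNM was at 45.3, 5.98 and 32.7, the transcription factor TFAP2B at 18.6, 1.93 and 10.3, and MXD4, a MAX partner that opposes MYC, at 14.3, 1.66 and 11.9. DPYSL2, a microtubule regulator in axons, was at 35.3, 5.73 and 34.95, and RAB3A, a GTPase of secretory vesicles, at 7.05, 0.486 and 7.69. BSCL2 (seipin) was at 29.1, 4.71, 36.8 and, in the knockdown library, 132. ASB9, second in rank, was at 22.3, 1.00 and 19.5, and had an estimated read ratio of 0.0447 (95% interval 0.0279 to 0.0680). In each of these 8 genes both controls lay above the overexpression library, which the ranking required and which is therefore no separate result.

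The limits of the calls fell between genes with nearly equal ratios. DPH5, PDRG1 and TAX1BP1 were the last counted as higher, the last at 49.3 and 99.7 RPKM, and ABCA11P, SAP30BP and PLEC the first left out, with PLEC at 122 and 246. RALGDS was counted as lower at 23.1 and 11.1, and CHSY1 was not at 39.7 and 19.4. Near the filter, TRAF3IP3 entered at 0.376 and 1.00 RPKM, and CTAGE1 did not at 0.444 and 0.997. Of the measured other genes 17 were listed at 0 with the vector and 22 with overexpression, among them IL2RG at 0 and 3.14 and SAPCD1 at 2.94 and 0, and a listed 0 may be a failed estimate.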

How the data were processed

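Each of the 4 libraries was made from poly(A) RNA of A375 cells, per the labels' protocols, and sequenced on an Ion Torrent instrument, per the series' design text. Values are RPKM per gene symbol as deposited by the authors. Build hg19, Cufflinks 2.2.0, SAMtools 1.1, Bowtie2 2.2.4 and TopHat2 2.0.13 are named in the submitters' processing notes. No gene annotation or strand setting is given in the sources used here. With 1 library per group no test was run. Log2 ratios used a pseudocount of 1 and genes at 1 RPKM or more in either library, with a 2-fold threshold. Named genes were those of listed families and markers, the top 40 in each direction at 5 RPKM or more beyond 2-fold against both controls, and the neighbours of each threshold. The members and gene lists were chosen with earlier results of these data known. Depth was estimated from the steps between low RPKM values and GENCODE 29 transcript lengths. Lengths were those of the longest transcript of a gene, and a fitted 200 nt was taken off each. With these depths, 70.4% of the values used came within 0.1 of whole reads for the vector, 66.9% for overexpression and 63.5% for scramble, where evenly spread values would give 20%. Intervals are exact conditional 95% intervals of read ratios and cover counting error only. Chromosomes and promoters were matched by symbol to RefSeq on GRCh38.p14, which is not the build of the deposited values, and 10169 measured genes had a promoter. Alternatives were another pseudocount, filter, scaling or control, and removal of the length and GC trend. Python 3.11.15, numpy 2.4.6, pandas 2.3.3, scipy 1.17.1 and matplotlib 3.10.9 were used.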

Additional observations from a re-analysis of the deposited data

How the results depend on the processing

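The count of higher genes, 1112, lay between 887 and 1431 under the other settings except a pseudocount of 5, which gave 617. The count of lower genes, 923, was 1535 with a pseudocount of 0.1 and 297 with 5, since the pseudocount decides how far low genes can differ. With the scramble library as the control, 30 small RNA genes were lower in place of 65. The chromosome 13 median of 0.52 was 0.32 with a pseudocount of 5 and 0.14 with no filter, which adds genes near 0 in both libraries, and 0.41 to 0.58 otherwise. The direction of 2 named genes reversed with the scramble library as the control: KRT81 to -0.17 and ADAMTS4 to -0.45, and the cause was not tested. Of 589 named genes past 2-fold, a further 87 fell under it with that control, and 182 with a pseudocount of 5. Each other setting took at most 38 under it. Of 38 gene families with a median of at least 0.5 in size, 37 kept its sign under every setting run other than removal of the filter, and chemokines went to -0.35 with a filter of 5 RPKM. No paired analysis was possible because each group had 1 library, and for the same reason no library could be left out. Depth limits ratios of genes near 1 RPKM, and RPKM of very short RNAs can rest on few reads.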
